A study of Homo sapiens with 6 samples.

Results

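The genes described here encode 33 human enzymes of amino acid synthesis and one-carbon metabolism, listed by name for their place in the pathways. The list was drawn up with earlier results of these data known, so shares of it that passed a test are descriptions of the list. They were followed in BT-549, a cultured line from a triple negative breast tumour, for which the deposited tables list 63140 genes. All 33 passed the filter on low counts, as did 14451 genes in all. RNA was sequenced from 3 cultures grown for 24 h in adipocyte conditioned medium (ACM) and from 3 grown in unconditioned medium (UCM), and the cells of both groups were wild type and carried no transgene. ACM was a medium with insulin, oleate, albumin and a little serum on alpha-MEM that had been kept on OP9 mouse cells as they differentiated into adipocytes. The labels give it as 50% ACM, whereas the supplement of the paper describes it undiluted. The culture medium of the line was RPMI-1640 with serum and insulin. Neither the formula of UCM nor the amino acid content of either medium is given in the sources used here, so the base medium and the adipocyte secretions cannot be told apart as the origin of a difference. The study's methods describe 3 replicates per condition grown and lysed in wells of a culture plate and name no separate passage or day, so p-values measure the spread between these cultures, which may be technical.

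Cells make the non-essential amino acids from intermediates of glycolysis and the TCA cycle, with glutamate as the usual nitrogen donor. Serine branches from glycolysis and passes a carbon unit to folate, which feeds nucleotide synthesis and the methionine cycle, and homocysteine from that cycle can be drawn off toward cysteine. Several of these enzymes are classic targets of ATF4, the transcription factor that cells make more of when amino acids run short or the endoplasmic reticulum is under stress.

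Depth was similar in the groups, with 18011670 to 21053257 counts in an ACM library and 17135288 to 20975782 in a UCM library. Levels of a gene in different libraries are given as CPM, counts scaled to library size after TMM normalization, and levels of different genes as TPM, which also divides by transcript length. On the first principal component (47.6% of the variance) the conditions separated, and on the second (25.1%) replicate 1 of both conditions stood apart from the other 4 libraries. The mesenchymal marker VIM was abundant in both groups (3168 ± 374 CPM in ACM and 2930 ± 169 in UCM, SD, n = 3), whereas KRT8, KRT18, KRT19 and EPCAM, markers of epithelium, had means below 0.5 CPM in both groups although the labels call the line epithelial. The highest value of these in any library was 0.753 CPM, of KRT18 in UCM replicate 2. CDH1, a further marker of epithelium, was low but above these, with means of 0.85 CPM in ACM and 1.27 CPM in UCM. ESR1 and PGR were at 0 in all 6 libraries and ERBB2 was at 74.0 and 68.2 CPM. Of 9 adipocyte markers, 4 (ADIPOQ, LEP, CIDEC and RETN) were at 0 in all 6 libraries. The summed level of the 9 ran from 13.7 to 16.5 CPM in ACM and from 10.8 to 14.1 in UCM, nearly all of it PPARG and CFD. In a bulk library, fewer cells that express a gene and less RNA per cell cannot be told apart.

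Most of these enzymes were well expressed in UCM, where the highest level per length was that of AHCY, which hydrolyses S-adenosylhomocysteine, at 372.8 ± 23.6 TPM (SD, n = 3), followed by MAT2A, which makes S-adenosylmethionine, at 264.8 ± 50.8 TPM. The mitochondrial aspartate aminotransferase GOT2 (149.3 TPM) and the mitochondrial folate enzymes MTHFD2 (126.4 TPM) and SHMT2 (123.6 TPM) came next. The lowest levels were those of CTH (1.99 TPM), AMT (1.43 TPM) and BCAT1 (0.46 TPM), which had 31 to 50, 21 to 50 and 3 to 16 counts per library. The levels of all members summed to 2399.2, 2479.0 and 2632.9 TPM in ACM and to 2286.9, 2342.0 and 2381.8 TPM in UCM, so the lowest ACM sum lay narrowly above the highest UCM sum. A sum does not show a rise of each member, and log2 fold changes were above 0 for 21 members and below 0 for 12.

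**Figure D1:**
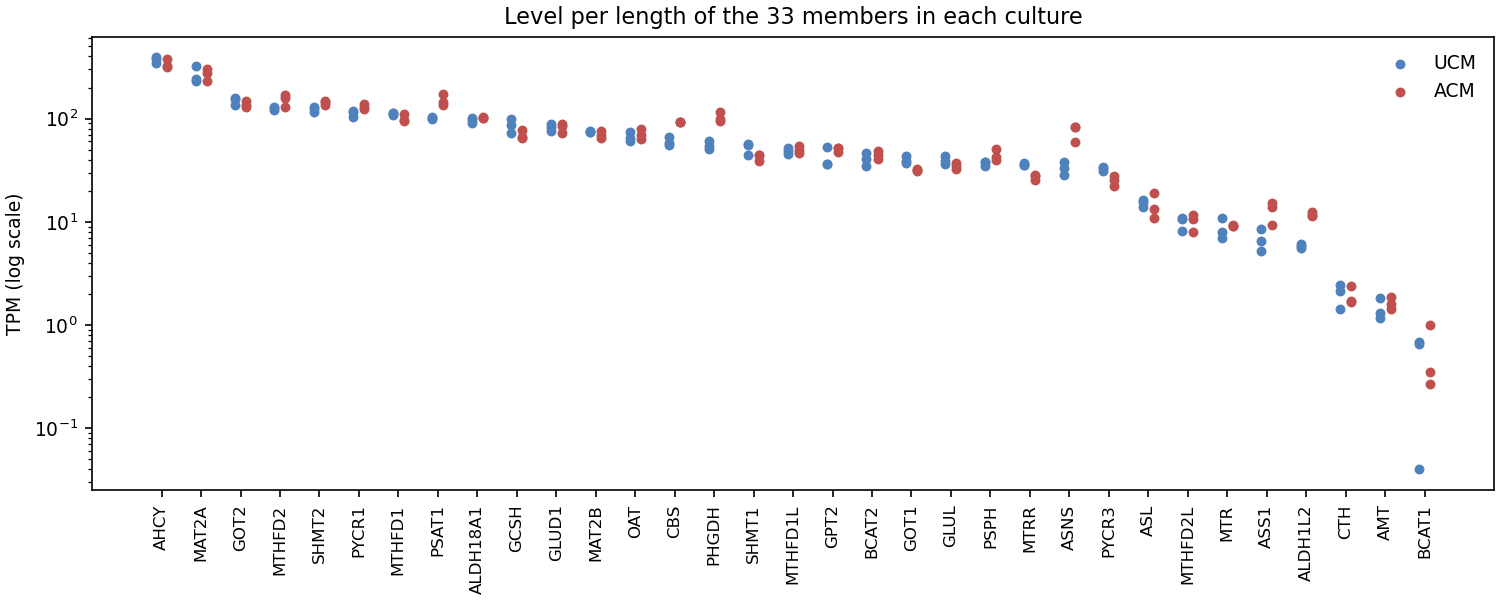
Levels of the 33 genes in TPM on a log axis, ordered by their mean in UCM, with a point for each of the 3 ACM and 3 UCM cultures. The genes span from 0.46 TPM for BCAT1 to 372.8 TPM for AHCY in UCM, and the ACM points of ASNS, PHGDH, ALDH1L2, CBS and PSAT1 lie apart above their UCM points.

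The genes that rose in ACM were ASNS of asparagine synthesis, PHGDH and PSAT1 of serine synthesis, ALDH1L2 of mitochondrial folate metabolism and CBS of transsulfuration. ASNS, PHGDH, ALDH1L2, CBS and PSAT1 were higher by 2.32, 1.91, 1.86, 1.61 and 1.503-fold, and each passed 0.05 as the adjusted p-value from edgeR's quasi-likelihood test with Benjamini-Hochberg adjustment over all genes tested. These are 5 of 33 members (15.2%), where 3.35% of all genes tested were called higher and 5.56% in either direction. None was called lower (0 of 33, where 2.21% of all genes were). At an unadjusted p-value of 0.05 from edgeR, 10 members were higher (30.3%, against 11.9% of all genes) and 6 were lower (18.2%, against 11.5%). DESeq2 called 9 higher and 0 lower, where it called 5.29% and 3.09% of all genes. At the study's thresholds, an unadjusted p-value of 0.05 and a log2 fold change of 0.58, ASS1 joined the 5 and made 6 up (18.2%, against 4.12% of all genes) and 0 down (against 1.71%). All 3 ACM values exceeded all 3 UCM values for 11 members (33.3%, against 13.9% of all genes), and lay below them for 4 (12.1%, against 15.1%). The median log2 fold change was 0.10 over the members and -0.01 over all genes tested. The count of lower members depended on the setting. Without UCM replicate 1 it was 4 (SHMT1, GCSH, PYCR3 and GOT1), where 3.9% of all genes were called lower, and MTR was then called higher. With all 6 libraries it was 3 with a filter of at least 1 count in total, 2 with the replicate number as a block, and 1 on either TPM scale or with effective lengths as offsets. Over all genes, lower calls were 679 of 25486 with that filter, 703 of 14451 with the block and 352 of 14451 with effective lengths. On the TPM scales they were 132 and 138 of 14451.

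**Figure D2:**
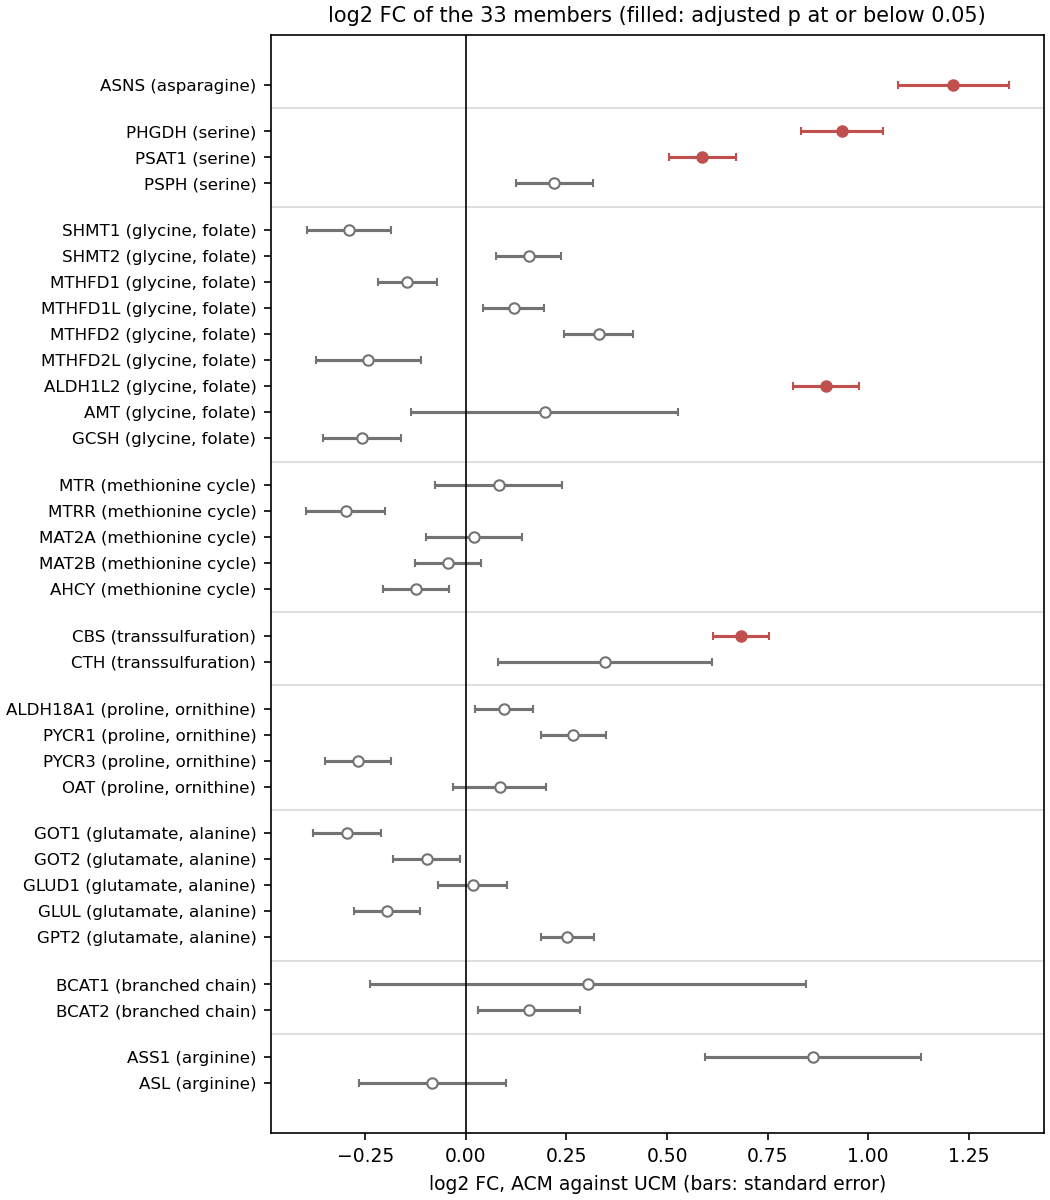
Log2 fold change of ACM over UCM for the 33 genes by pathway step, with bars of 1 standard error from edgeR and filled points for genes that passed 0.05 as the adjusted p-value. The 5 filled points lie between 0.59 (PSAT1) and 1.21 (ASNS), and the other 28 genes lie on both sides of 0.

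Asparagine synthetase, ASNS (ENSG00000070669.17, GRCh38 chr7:97851677-97872542, minus strand), makes asparagine from aspartate with the amide nitrogen of glutamine and had the largest log2 fold change of the members. Its levels were 69.7, 96.7 and 95.6 CPM in ACM and 41.0, 38.7 and 33.2 CPM in UCM. Every ACM culture lay above every UCM culture, and ACM replicate 1 was the lowest of its group. The log2 fold change was 1.21 (SE 0.14, adjusted p = 0.00336 from edgeR, n = 3 and 3). Annotated pseudogenes, which share sequence with the gene, held 1.69% of the reads of the ASNS family. ASRGL1, which breaks asparagine down, was the tested member of a list of 2 asparagine genes outside the set and was not called, with a log2 fold change of -0.07.

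The ASNS promoter is known for a C/EBP-ATF response element, at which ATF4 and C/EBP proteins bind, and its core letters TGATGNAA were searched on both strands in RefSeq windows of GRCh38.p14 from 250 bases before to 50 bases after each start. The 250 bases before the ASNS start at which the core was found are shown because ASNS had the largest fold change, and 30 bases around the core are shown for each other member that held it, 5′ to 3′ on the gene's strand with the core in capitals.
ASNS (chr7:97872409-97872658, minus strand): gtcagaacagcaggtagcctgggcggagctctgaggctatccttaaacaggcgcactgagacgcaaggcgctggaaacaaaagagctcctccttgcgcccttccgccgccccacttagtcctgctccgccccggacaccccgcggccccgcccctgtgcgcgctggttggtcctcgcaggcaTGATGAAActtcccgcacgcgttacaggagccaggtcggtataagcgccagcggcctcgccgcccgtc
MTHFD1L (chr6:150866346-150866375, plus strand): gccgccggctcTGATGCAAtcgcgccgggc
GOT1 (chr10:99430804-99430833, minus strand): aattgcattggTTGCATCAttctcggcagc
BCAT1 (chr12:24949131-24949160, minus strand): tgtcttcctgcTGATGCAAtccgctaggtc
In ASNS the core begins 68 bases before the start. In GOT1 it is on the opposite strand, which is why its capitals read as the reverse complement. Of the 33 members, 25 had windows, and 4 of these (16.0%) held the core, against 4.46% of 27305 genes with windows. A gene with more windows has more places for a match, and the 25 members had 42 windows whereas the 27305 genes had 35116. By window, 6 of the 42 (14.3%) held the core, against 3.62% of all. MTHFD1L gave 3 of these from its 4 windows, and BCAT1 gave 1 from 5. The letters searched are those known from the ASNS promoter, so the match in ASNS was given beforehand, and the 16.0% includes it. Among members not called higher, 3 of 21 with windows (14.3%) held the core. Of the 5 members that rose, ASNS held it, PHGDH, PSAT1 and CBS had windows without these letters, and ALDH1L2 had no window. The other 3 genes with the core, MTHFD1L, GOT1 and BCAT1, were not called, and their log2 fold changes were 0.12, -0.30 and 0.30. A match in a window is a description of the letters, and binding was not measured here.

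Of the 3 genes of serine synthesis, 2 rose. PHGDH (ENSG00000092621.13, chr1:119648411-119744218, plus strand) oxidises the glycolytic intermediate that enters the pathway, and PSAT1 (ENSG00000135069.14, chr9:78297125-78330093, plus strand) then adds the amino group from glutamate. PHGDH stood at 82.4, 92.6 and 103.6 CPM in ACM against 43.1, 50.5 and 52.1 CPM in UCM. PSAT1 stood at 183.4, 200.5 and 227.2 CPM against 130.1, 139.2 and 137.3 CPM. For both genes the lowest ACM culture was well above the highest UCM culture, with log2 fold changes of 0.94 (SE 0.10, adjusted p = 0.00219 from edgeR) for PHGDH and 0.59 (SE 0.08, adjusted p = 0.00494) for PSAT1. Per length, PHGDH was below PSAT1 in UCM (55.3 ± 4.57 against 101.4 ± 2.08 TPM) and in ACM (102.7 ± 11.1 against 151.1 ± 18.4 TPM).

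PSPH, the phosphatase that releases serine in the last step, did not pass. It ranged from 37.7 to 43.2 CPM in ACM and from 31.4 to 37.5 CPM in UCM. The groups did not overlap, but the gap between them was narrow, and the log2 fold change was 0.22 (SE 0.10, adjusted p = 0.195 from edgeR).

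**Figure D3:**
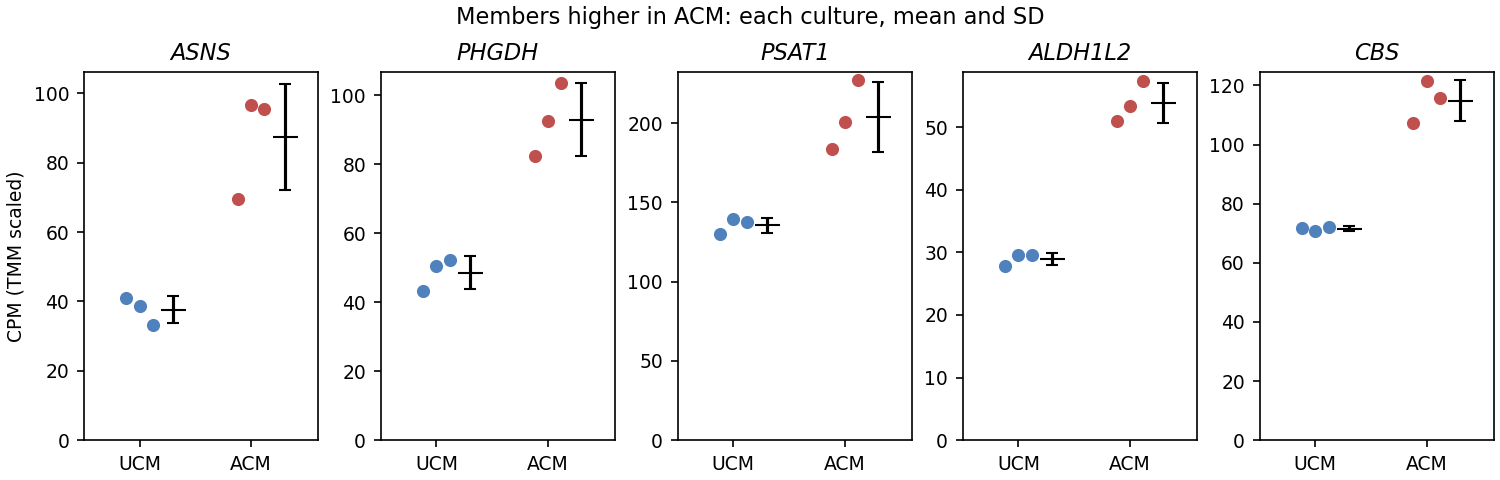
CPM of the 5 genes called higher in ACM, with a point for each culture and the mean and SD of 3 beside them. In each panel the 3 ACM points lie above the 3 UCM points, with means of 87.3 against 37.6 CPM for ASNS and 203.7 against 135.5 CPM for PSAT1.

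Of the 9 genes of glycine and folate metabolism, ALDH1L2 alone passed. ALDH1L2 (ENSG00000136010.14, chr12:105019784-105107643, minus strand) oxidises formyl-tetrahydrofolate to carbon dioxide in mitochondria and yields NADPH. It stood at 51.0, 53.3 and 57.3 CPM in ACM and at 27.8, 29.6 and 29.5 CPM in UCM. The replicates of each group lay close together, and the log2 fold change was 0.90 (SE 0.08, adjusted p = 0.001 from edgeR). Its level per length stayed low, at 11.8 ± 0.559 TPM in ACM and 5.84 ± 0.205 TPM in UCM, with an effective transcript length of 6464 bases on average in ACM and of 7100 bases in UCM.

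MTHFD2, the mitochondrial dehydrogenase and cyclohydrolase that precedes the formyl step, fell just short of the threshold. Its values were 140.1, 173.3 and 172.8 CPM in ACM and 129.6, 128.8 and 128.3 CPM in UCM. The UCM cultures were almost equal, and ACM replicate 1 lay much nearer to them than did the other ACM cultures. The log2 fold change was 0.33 (SE 0.09, adjusted p = 0.0525 from edgeR), and it passed 0.05 under 6 of 15 alternative settings, among them the one without ACM replicate 1 (0.43, adjusted p = 0.0121). SHMT2, which splits serine into glycine and a folate-bound carbon in mitochondria, and MTHFD1L, which releases formate there, had log2 fold changes of 0.16 and 0.12, with adjusted p-values of 0.281 and 0.386 from edgeR.

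The cytosolic counterparts had values on the other side of 0, and none passed. SHMT1 stood at 53.4, 52.4 and 58.2 CPM in ACM and at 56.0, 72.0 and 72.7 CPM in UCM, with a log2 fold change of -0.29 (SE 0.11, adjusted p = 0.132 from edgeR). UCM replicate 1 lay among the ACM values, and without it SHMT1 was called lower. MTHFD1, the cytosolic enzyme with 3 activities in this pathway, had a log2 fold change of -0.15 (adjusted p = 0.267). The low-level mitochondrial MTHFD2L had -0.24 (adjusted p = 0.300), a value that was 0.02 on log2 TPM since its effective length differed between libraries by up to 1.45-fold. For the glycine cleavage system, which breaks glycine down to a folate-bound carbon, GCSH had -0.26 (adjusted p = 0.143) and AMT 0.20 (adjusted p = 0.777).

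Folate-bound carbon is used in DNA synthesis, and a list of 13 growth genes, of S phase and of mitosis, was read beside these values. All 13 had log2 fold changes below 0, as had 7497 of 14451 genes tested. They ran from -0.48 for MKI67 to -0.06 for MCM2, and another replication gene, MCM5, had -0.095. Of the 13, 2 were called lower (against 2.21% of all genes), CCNB1 (-0.40, adjusted p = 0.0236 from edgeR) and RRM2 (-0.39, adjusted p = 0.0423). Neither call held without ACM replicate 2, UCM replicate 2 or UCM replicate 3 (0 of 13 called), and 1 held without ACM replicate 1. The summed level of the 13 was 2274, 2261 and 2500 CPM in ACM and 2632, 2816 and 2851 CPM in UCM, so the groups did not overlap. Their part in the folate values was not tested. Among 17 further folate genes, of which 13 were tested, 0 were called in either direction, and the median log2 fold change was -0.11. At an unadjusted p-value of 0.05 from edgeR, 2 of these 13 were lower, near the 11.5% of all genes.

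Transsulfuration takes homocysteine to cysteine, and its entry enzyme CBS rose. CBS (ENSG00000160200.18, chr21:43053191-43076943, minus strand) joins serine and homocysteine to form cystathionine. Its levels were 107.4, 121.4 and 115.7 CPM in ACM and 71.8, 70.6 and 72.1 CPM in UCM. The lowest ACM culture stood far above all UCM cultures, which hardly differed, and the log2 fold change was 0.68 (SE 0.07, adjusted p = 0.00141 from edgeR). CBSL, a near-identical copy, was given 0 counts in the ACM libraries and 7.29, 7.51 and 0 in the UCM libraries, so few reads were assigned to the copy. CTH, which cleaves cystathionine to cysteine, was far lower, with 50, 36 and 39 counts in the ACM cultures and with 34, 31 and 32 in the UCM cultures. At that depth no difference was detectable, with a log2 fold change of 0.35 (SE 0.27, adjusted p = 0.480).

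In the methionine cycle, which regenerates methionine and supplies methyl groups, 0 of 5 genes passed in either direction. MTRR, the reductase that keeps methionine synthase active, came nearest, at 42.2, 38.0 and 35.4 CPM in ACM and 52.6, 44.7 and 45.0 CPM in UCM. Its groups did not overlap, but the log2 fold change of -0.30 (SE 0.10) had an adjusted p-value of 0.103 from edgeR, which passed 0.05 under 5 of 15 alternatives. The synthase itself, MTR, ranged from 43.0 to 47.6 CPM in ACM and from 35.2 to 54.1 CPM in UCM, where replicate 1 stood above all other libraries. Without that library its log2 fold change was 0.32 (adjusted p = 0.0457 from edgeR). MAT2A likewise had its highest values in replicate 1 of each condition (433.6 CPM in ACM and 463.0 CPM in UCM). The log2 fold changes of MTR, MAT2A, its regulatory subunit MAT2B, and AHCY were 0.08, 0.02, -0.05 and -0.12, with adjusted p-values of 0.402 or above. Thus the most abundant members were among those that showed no detectable difference. Of 18 further genes of methionine and sulfur metabolism, 13 were tested, 0 were higher and 1 was lower. That gene was ADI1, of the methionine salvage pathway, at 50.3, 45.0 and 59.4 CPM in ACM and 62.8, 77.9 and 76.6 CPM in UCM (log2 fold change -0.49, SE 0.12, adjusted p = 0.0440 from edgeR). Its log2 fold change lay between -0.60 and -0.40 under 16 alternatives, and it was not called without ACM replicate 1 or 2 or without UCM replicate 2 or 3, nor with limma-trend on either TPM scale.

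Proline synthesis runs from glutamate through ALDH18A1 to a reductase of the PYCR family, and 0 of 4 genes of proline and ornithine metabolism passed. The mitochondrial reductase PYCR1 stood at 135.1, 139.3 and 144.5 CPM in ACM and at 103.4, 119.6 and 125.2 CPM in UCM. PYCR3, the cytosolic reductase, stood at 40.9, 38.3 and 41.0 CPM in ACM and at 45.5, 51.6 and 47.6 CPM in UCM. The groups were thus apart in opposite directions, with log2 fold changes of 0.27 (adjusted p = 0.0810 from edgeR, passed under 3 of 15 alternatives) and -0.27 (adjusted p = 0.0846, passed under 1). ALDH18A1 and the ornithine aminotransferase OAT had log2 fold changes of 0.10 and 0.08, and their groups overlapped.

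Aminotransferases that move nitrogen between glutamate and other amino acids also had values in both directions, and 0 of 5 genes of glutamate and alanine passed. GPT2, which makes alanine from pyruvate in mitochondria, stood at 114.4, 111.7 and 114.3 CPM in ACM and at 91.6, 94.0 and 100.5 CPM in UCM (log2 fold change 0.25, SE 0.07, adjusted p = 0.0535 from edgeR). It passed 0.05 under 6 of 15 alternatives, and its CPM groups were apart whereas its TPM groups overlapped. GOT1, the cytosolic aspartate aminotransferase, was on the other side of 0, at 37.3, 37.4 and 37.9 CPM in ACM and 42.5, 49.7 and 46.0 CPM in UCM (log2 fold change -0.30, SE 0.08, adjusted p = 0.0691). Its ACM cultures were nearly equal and all below UCM, and it passed under 3 of 15 alternatives. Glutamine synthetase, GLUL, ranged from 29.8 to 31.8 CPM in ACM and from 34.0 to 36.7 CPM in UCM, with an adjusted p-value of 0.184. GOT2 and the glutamate dehydrogenase GLUD1 had log2 fold changes of -0.10 and 0.02, with overlapping groups.

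Branched-chain aminotransferases and the arginine pair held no called gene. BCAT2, the mitochondrial enzyme of the former, had a log2 fold change of 0.16 (adjusted p = 0.503 from edgeR), and BCAT1, the cytosolic one, was too low to compare. ASS1, which joins citrulline and aspartate on the way to arginine, had a log2 fold change of 0.86 with a wide error (SE 0.27). It stood at 7.98, 12.6 and 10.3 CPM in ACM and at 3.65, 7.58 and 5.77 CPM in UCM, so the groups were apart, but narrowly. Its adjusted p-value was 0.0992 from edgeR and was at or below 0.05 under 4 of 15 alternatives, and pseudogenes held 5.96% of the reads of its family. ASL, the next enzyme, had -0.08 (adjusted p = 0.833).

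Several steps are served by a pair of enzymes, often 1 in mitochondria and 1 in the cytosol, and the ratio within a library does not depend on how libraries are scaled. The log2 ratio of SHMT2 to SHMT1 was 1.54, 1.78 and 1.53 in ACM and 1.29, 1.13 and 1.12 in UCM, a difference of 0.44 (SE 0.10). That of PYCR1 to PYCR3 was 1.73, 1.86 and 1.82 in ACM and 1.19, 1.21 and 1.40 in UCM, a difference of 0.54 (SE 0.08). In both pairs every ACM ratio was above every UCM ratio, toward the mitochondrial enzyme. The same order held for MTHFD1L over MTHFD1 (difference 0.27, SE 0.05) and GOT2 over GOT1 (0.20, SE 0.06). It also held for MTHFD2 over MTHFD2L (0.57, SE 0.09), which are both mitochondrial, so that ratio does not compare compartments. Each of these 5 pairs had p = 0.1 from a two-sided exact permutation test, the smallest that 3 against 3 can give, and 0.14 after adjustment over the 7 pairs, so none passed. Of single genes, 13.9% lay apart above and 15.1% apart below, and no such share was worked out over other pairs of genes. On TPM, the pairs MTHFD2 over MTHFD2L and GOT2 over GOT1 overlapped between the groups, and the difference for MTHFD2 over MTHFD2L was 0.24. Overlap was seen on both scales for the other pairs, BCAT2 over BCAT1 (-0.40, SE 0.74, exact p = 0.9) and the subunits MAT2A over MAT2B (0.07, SE 0.19, exact p = 0.5).

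**Figure D4:**
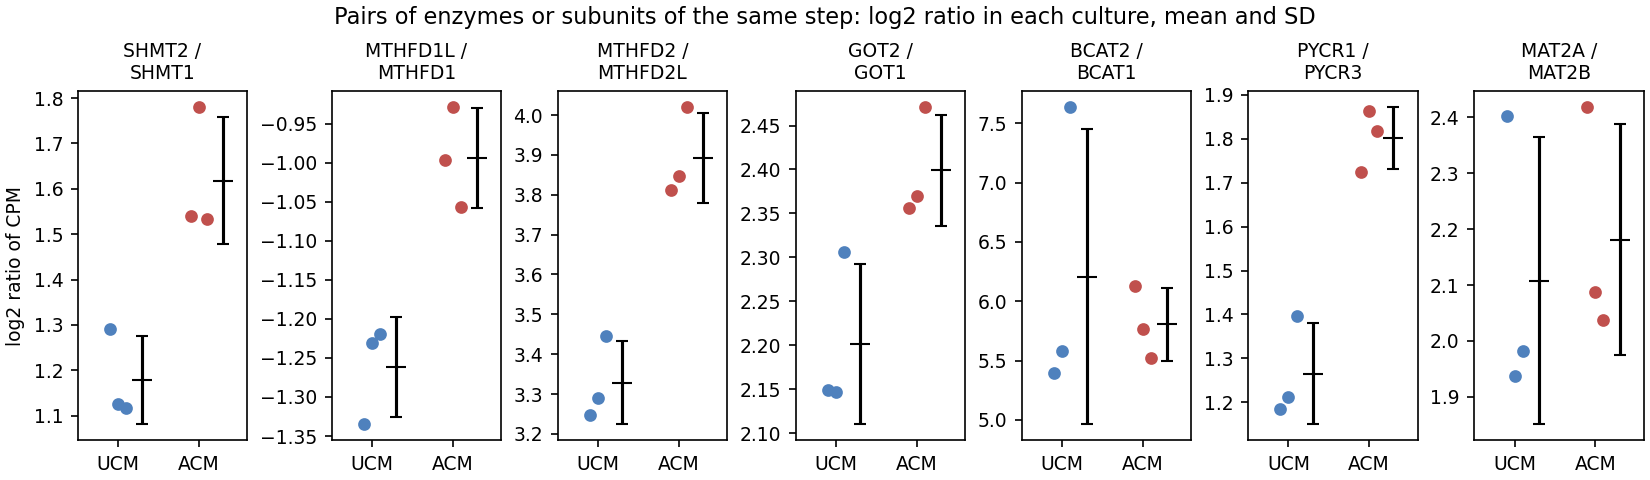
Log2 ratio of the CPM of paired enzymes or subunits of a step, with a point for each culture, the mean and SD of 3 beside them, and an axis of its own for each pair. For 5 of 7 pairs the 3 ACM points lie above the 3 UCM points, with differences of means from 0.20 (GOT2 over GOT1) to 0.57 (MTHFD2 over MTHFD2L). As ratios of TPM, the groups overlap for both of these named pairs.

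Genes of these pathways outside the set of 33 gave few calls. Of 74 such genes on 6 lists, 54 were tested, 0 were higher and 1 was lower, ADI1, at the adjusted p-value from edgeR (against 3.35% and 2.21% of all genes). At an unadjusted p-value 4 were higher and 8 lower, against 11.9% and 11.5% of all genes, with a median log2 fold change of -0.08. By list, the medians were 0.15 over 7 genes of glycine and serine, 0.11 over 11 of proline, glutamate and arginine, and -0.15 over 9 of branched-chain breakdown.

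The list of regulators of amino acid metabolism and of stress response genes gave more calls, 7 higher and 1 lower among 17 tested. Over all genes tested 3.35% were higher and 2.21% lower. Without UCM replicate 2 the list gave 4 higher, where 125 of 14779 genes were higher. This list too was drawn up with earlier results of these data known. ATF4 stood at 212.6, 226.0 and 210.1 CPM in ACM and at 178.2, 170.6 and 162.3 CPM in UCM, a log2 fold change of 0.34 (SE 0.07, adjusted p = 0.0177 from edgeR). Its log2 fold change was 0.31 to 0.40 under 16 alternatives, but it was not called without ACM replicate 2, UCM replicate 2 or UCM replicate 3. The 5 members that rose each had a larger log2 fold change, a difference that was not tested. CEBPB, a partner of ATF4 at response elements, rose from 162.1, 180.6 and 183.1 CPM in UCM to 271.2, 359.8 and 256.0 CPM in ACM, and was not called without UCM replicate 2 or without replicate 1 of both conditions together. The 6 largest rises took in CHAC1, which degrades glutathione, and SESN2, which restrains mTORC1 when leucine is low (log2 fold changes 1.11 and 0.96, called under all 16 alternatives). They also took in NUPR1 and TRIB3, targets of ATF4 (0.72 and 0.67). MYC, the remaining gene called higher, had 0.30 (SE 0.07, adjusted p = 0.0371 from edgeR) and was called under 10 of 16 alternatives. ATF5 was the 1 gene of the list called lower, from 42.6, 52.2 and 46.9 CPM in UCM to 31.2, 28.3 and 32.5 CPM in ACM. Its log2 fold change was -0.62 (SE 0.10, adjusted p = 0.00750 from edgeR) and lay between -0.69 and -0.48 under 16 alternatives. It was not called with limma-trend on either TPM scale. The kinases upstream of ATF4 that sense stress of the endoplasmic reticulum and lack of amino acids, EIF2AK3 and EIF2AK4, had log2 fold changes of 0.33 and -0.06 and were not called, nor was DDIT3 (-0.28). On TPM the direction of EIF2AK3 turned, with 9.95 ± 2.65 TPM in ACM and 10.5 ± 0.282 TPM in UCM, since its effective length differed between libraries by up to 2.05-fold.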

How the data were processed

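RNA-seq libraries of BT-549 cells, 3 in ACM and 3 in UCM, were grouped by their labels. The authors prepared polyA-selected, paired-end libraries and used Trim Galore for trimming, STAR for alignment to GRCh38 and RSEM for quantification (versions are not given in the sources used here). The authors deposited for each gene the expected count, which is not scaled for depth and shares ambiguous reads between genes, the TPM, and the effective length. A further deposited table of the authors' fold changes and p-values was not used.

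Expected counts were rounded, and the groups were tested with edgeR 4.0.16 under R 4.3.3 (filterByExpr, TMM, robust quasi-likelihood fit, condition only, Benjamini-Hochberg adjustment over 14451 genes). The method was also run on simulated counts with the same biological variability for every gene and no effect of replicate number. Such counts do not show how it performs with the spread of these libraries. Alternatives used DESeq2 1.42.0 and limma 3.58.1. Identifiers and versions of 61547 genes matched GENCODE 44, and SHMT1, whose version differs, was matched without it and given no position.

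All members are named, and every value is given for those that passed 0.05 as adjusted p. Of related genes, up to 6 per direction and ATF4 were to be named, and the remaining regulators, growth genes and marker genes were named after their values were seen. Members and lists were chosen with earlier results of these data known. Same-numbered replicates were compared by the correlation of their deviations from the group means, which was 0.376, 0.038 and 0.259 for numbers 1, 2 and 3. The numbers were not taken to pair the cultures in the main fit. The value for number 1 was the highest between any ACM and any UCM library. With 3 deviations per group, these values cannot exclude an effect shared by replicate 1 of both conditions.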

Additional observations from a re-analysis of the deposited data

How the results depend on the processing

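ASNS, PHGDH, PSAT1, ALDH1L2 and CBS were called higher under each of 15 alternatives and under 1 chosen after seeing the data. The 5 members higher became 9 with DESeq2, with a filter of at least 1 count in total and with the replicate block, and 5 to 6 with a library left out. The 0 members lower became 3 with the weak filter (SHMT1, MTRR and GOT1), 2 with the replicate block (MTRR and GOT1), 1 with limma-trend after adding 1 or 0.1 to TPM and 1 with DESeq2 and effective lengths as offsets (each time MTRR), and 0 to 4 with a library left out, the 4 arising without UCM replicate 1. Without replicate 1 of both conditions, the added alternative, 8 members were higher and 4 lower, where 1017 and 726 of 14393 genes were. Over all genes, higher calls numbered 764 of 14451 with DESeq2, 1045 of 25486 with the weak filter and 909 of 14451 with the block. Lower calls numbered 679 of 25486 with the weak filter, 703 of 14451 with the block and 352 of 14451 with effective lengths as offsets. With limma-trend they numbered 132 and 138 of 14451. The cause of the changes in member counts was not tested. At the study's thresholds 5 to 6 members were up and 0 down when a library was left out. As ratios of TPM, the pair differences became 0.19 for MTHFD1L over MTHFD1 and 0.24 for MTHFD2 over MTHFD2L, since effective lengths differed between libraries.

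For the lists of related genes, all alternatives were chosen after seeing the data. With a library left out, 4 to 7 regulators were higher, 0 to 1 other pathway genes were higher and 0 to 3 lower, and 0 to 3 growth genes were lower. On both TPM scales 0 regulators, 0 other pathway genes and 1 growth gene were lower. Other pathway genes numbered 1 higher with DESeq2, 2 higher and 2 lower with the weak filter, 1 higher and 2 lower with effective lengths as offsets, 1 higher and 3 lower with the block, and 2 higher and 4 lower without replicate 1 of both conditions. Growth genes lower numbered 5 with DESeq2, 5 with the weak filter, 1 with effective lengths as offsets, 4 with the block and 5 without replicate 1 of both conditions. In the main fit 17 regulators, 54 other pathway genes and 13 growth genes were tested. Over all genes, higher and lower calls were 764 and 447 of 14451 with DESeq2 and 1045 and 679 of 25486 with the weak filter. With effective lengths as offsets they were 636 and 352 of 14451, and with the block 909 and 703. Without replicate 1 of both conditions they were 1017 and 726 of 14393. With a library left out they ran from 125 to 738 and from 62 to 572.

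Signs changed only for members that were not called. On log2 TPM with 1 added, with 0.1 added and with effective lengths as offsets, MTHFD2L had 0.021, 0.022 and 0.058 and CTH had -0.031, -0.040 and -0.008. GLUD1 had -0.014 on both TPM scales. Leaving out a library gave -0.034 to 0.098 for GLUD1, -0.032 to 0.442 for AMT, -0.019 to 0.318 for MTR, -0.050 to 0.159 for MAT2A, -0.130 to 0.019 for MAT2B, 0.00 to 0.19 for OAT, -0.08 to 0.66 for BCAT1 and -0.33 to 0.05 for ASL, and as pair differences -0.80 to 0.32 for BCAT2 over BCAT1 and -0.05 to 0.22 for MAT2A over MAT2B. In the correlation of deviations, UCM replicate 2 lay nearer to ACM replicate 3 (0.272) than to ACM replicate 2. Over all genes tested, 484 were higher and 320 lower, 909 and 703 with the block, and 125 and 70 without UCM replicate 2. The depth left AMT, BCAT1 and CTH too low for a firm comparison.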
